A study of Mus musculus with 9 samples.

Results

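The genes described here are 9 genes that Müller glia use to keep the retina in working order: Glul, Slc1a3, Kcnj10, Aqp4, Dkk3, Car14, Abca8a, Sox9 and Sox2. They were found by symbol in a table of 22337 genes measured by RNA-seq in whole mouse retina, and all 9 had a row. The retinas were taken at postnatal day 28 (P28) from 3 groups with 3 libraries each. The WT group was C57BL/6J mice that received no injection. The other groups were rd10 mice, which carry a mutation of the rod phosphodiesterase gene Pde6b and lose their rods, and which were littermates of each other and not of the WT mice. One rd10 group received normal saline (NS) and the other received MSC-EVs, which are extracellular vesicles shed by mesenchymal stem cells of the human umbilical cord. Each injection was 1 μl into both eyes at P14 and again at P21. The labels give neither the sex of the mice nor how many retinas went into a library, so that p-values measure the spread between these libraries, which may be technical in part. Genotype, source of the mice and injection all differ between WT and either rd10 group and cannot be told apart.

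Müller glia are the radial glia of the retina, and their processes reach from the photoreceptors to the inner surface. They take up the glutamate that neurons release and turn it into glutamine, pass potassium and water to the vitreous and the vessels, and buffer carbon dioxide and acid. When the retina is injured, they enlarge, fill with intermediate filaments and change their gene expression, a response called gliosis. Several of the 9 genes are not restricted to Müller glia: Slc1a3, Glul, Aqp4, Kcnj10 and Sox9 are also transcribed in retinal astrocytes, Sox2 in astrocytes and some amacrine cells, and Car14 in the pigment epithelium.

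The libraries held between 19491717 and 62532343 estimated counts, MSC-EVs replicate 3 being the deepest, and no member fell below 283 counts in any library. MSC-EVs replicates 1 and 2 stood apart from the other 7 libraries in the Y-linked genes Kdm5d, Uty, Ddx3y and Eif2s3y, with 4379 and 4421 counts summed over the 4 genes. The sum was 7 to 11 in the WT and NS-treated libraries and 23 in MSC-EVs replicate 3. Y-linked transcripts come from males, so MSC-EVs replicates 1 and 2 held male tissue and the other 7 libraries little or none. Sex is thus partly mixed with treatment in both comparisons of the MSC-EVs group. Counts of genes called in the MSC-EVs group, and the values of the 9 genes against NS, are therefore also given without these 2 libraries, in a fit of the other 7 libraries together, where MSC-EVs replicate 3 alone stands for the treatment. Fits with Y-linked expression as a covariate also rest on that library for the treatment, because the covariate sets MSC-EVs replicates 1 and 2 apart. They are thus no separate check. The cells of the tissue differed as well. CPM scaled with TMM factors over the 9 libraries (counts per unit of library size, called scaled CPM here), summed over 8 rod genes, ran from 70800 to 76100 in WT and from 14100 to 20700 in the 6 rd10 libraries. Summed over 10 microglia and macrophage genes they ran from 73.6 to 78.1 in WT and from 312 to 547 in rd10. A gene of a cell type that stays while rods are lost takes a larger share of a library, and in whole retina fewer cells of a type and less RNA per cell cannot be told apart.

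The genes were placed by their identifiers in GENCODE M21 (GRCm38). The SOX genes are compact, with Sox9 at chr11:112782224-112787760 and Sox2 at chr3:34650405-34652461, the latter inside the non-coding gene Sox2ot on the same strand. Slc1a3 is at chr15:8634124-8710764, Glul at chr1:153899944-153909723 and Kcnj10 at chr1:172341210-172374085. Dkk3 is at chr7:112116017-112159057, Car14 at chr3:95897768-95904691 and Abca8a at chr11:110025634-110095978. A row gives a whole gene, not an exon or a UTR. Some reads could belong elsewhere. Of the 50-base stretches in the annotated transcripts of Glul, 11.9% also occurred in another gene, mainly the pseudogene Glns-ps1, and 1.64% of those of Abca8a occurred in its neighbour Abca8b. The share was 1.53% for Kcnj10, 0.704% for Slc1a3 and 0 for the other 5. Car14 overlaps Aph1a, Glul overlaps Teddm2 and Aqp4 overlaps an antisense gene on the opposite strand. No step that marks strand is named in the library protocol, so reads of such pairs may not be separable.

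SOX proteins bind short sites with the core ACAAAG or ACAATG, and these letters were looked for, on both strands, in RefSeq promoter windows (GRCm38.p6, 300 bases around a start). A window was given for 6 members, and 2 of the 6 held a match, beside 28.6% of all 32851 windows. The stretches around both matches are shown because they belong to a SOX gene and to the potassium channel gene, with the matched letters in capitals. The first lies on the plus strand at chr1:172341198-172341227, its match beginning at the annotated start, and the second on the plus strand at chr3:34649777-34649806, its match beginning 206 bases before the start that RefSeq gives. A match is a description of the letters and does not show that a protein binds there.
Kcnj10: ccctccattcacACAAAGtttggcttcggc
Sox2: ggggggggggatACAAAGgttccccagcgg

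Per transcript length, the glutamine-making enzyme dominated the group. FPKM, the authors' value for fragments per kilobase of transcript at a common depth, is the scale on which levels of different genes can be compared. Glul (glutamine synthetase) averaged 906 ± 40.4 FPKM in WT (SD, n = 3), 1000 ± 192 in NS-treated rd10 and 709 ± 70.2 in MSC-EVs-treated rd10, and ranked between 22 and 34 among all genes. It made up 67.1% to 67.5% of the summed FPKM of the 9 genes in WT, 49.8% to 58.1% in NS-treated rd10 and 47.1% to 54.2% in MSC-EVs-treated rd10. Dkk3, which encodes a secreted protein of the Dickkopf family, ranked 2 in every library, at 231 ± 4.81 FPKM in WT. Slc1a3, which encodes the glutamate transporter GLAST, came next at 55.5 ± 2.92, and Car14, a membrane-bound carbonic anhydrase facing the extracellular space, after it at 52.4 ± 3.18. Slc1a3 stood above Car14 within each of the 9 libraries, although the ranges of both genes over libraries overlapped in WT and in NS-treated rd10.

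The lower ranks moved more. Abca8a, which encodes a lipid transporter of the ATP-binding cassette family, followed in WT at 43.7 ± 2.62 FPKM, and Aqp4, the water channel, stood below it at 26.3 ± 2. In all 3 NS-treated libraries Aqp4 (60.2 ± 2.86) stood above Abca8a (47.6 ± 7.46), and in MSC-EVs-treated rd10 the libraries of this pair overlapped. Kcnj10, the inward rectifier potassium channel Kir4.1, ranked 7 in every library, at 15.6 ± 1.34 FPKM in WT. The transcription factor genes came last, Sox2 at 11.2 ± 1.08 and Sox9 at 3.04 ± 0.220 in WT. Sox9 was the lowest of the 9 in 8 of the 9 libraries, the exception being MSC-EVs replicate 2, where it was at 19.1 FPKM and Sox2 at 18.

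**Figure D1:**
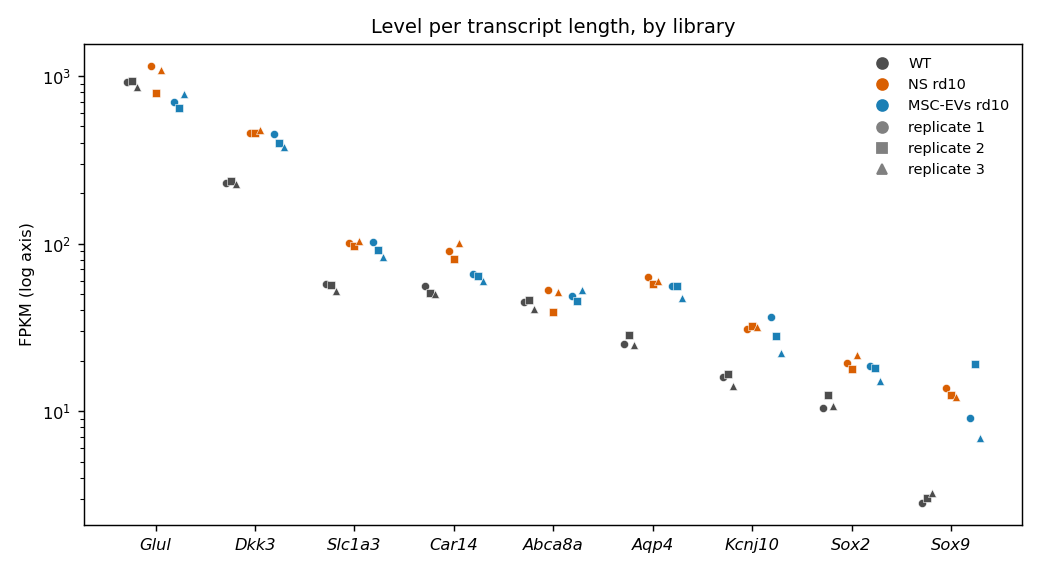
FPKM (log axis) of the 9 genes in each of the 9 retinal libraries, with genes ordered by their WT mean from left to right, colours for groups and marker shapes for replicates. Glul and Dkk3 lie above all others in every library, and Sox9 spans from about 2.83 in WT replicate 1 to 19.1 in MSC-EVs replicate 2.

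Comparing NS-treated rd10 with WT asked what the degenerating retina did to these genes. Of the 9, 7 rose: the glutamate transporter Slc1a3, the potassium channel Kcnj10, the water channel Aqp4, Dkk3, Car14 and the transcription factors Sox9 and Sox2. Glul and Abca8a did not pass the test. The rises ran from 1.54-fold for Sox2 to 3.73-fold for Sox9, and the median log2 fold change over the 9 genes was 0.69, beside 0.005 over all 14644 genes tested. Genes were called with edgeR's quasi-likelihood test at a Benjamini-Hochberg adjusted p under 0.05, and 61.3% of the genes tested were called in this comparison, with 31.2% of those tested called higher in NS-treated rd10. When a log2 fold change of 1 or more in size was also required, 2 of the 9 were called, Aqp4 and Sox9, beside 12.7% of genes. Aqp4 lay at this limit and was below it with the inner retinal neuron scaling described later (0.74), with a trend with transcript length removed (0.97), and without NS replicate 1 (0.96), WT replicate 1 (0.99) or WT replicate 3 (0.99). The 3 NS-treated libraries all lay above the 3 WT libraries for 7 of the 9, as they did for 33.7% of the genes tested.

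The genes of glutamate uptake and of its conversion parted. Slc1a3 was at 258, 254 and 236 scaled CPM in the WT libraries and at 403, 385 and 410 in NS-treated rd10. All NS-treated values were above all WT values, and the log2 fold change was 0.68 (SE 0.06, 95% interval 0.55 to 0.80, edgeR adjusted p = 9.33e-07). Glul was at 2790, 2800 and 2610 in WT and at 3080, 2100 and 2860 in NS-treated rd10. NS replicate 2 lay below every WT library and the other NS-treated libraries above them, so the groups overlapped, with a log2 fold change of −0.03 (SE 0.13, interval −0.31 to 0.25, edgeR adjusted p = 0.853).

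The channels that carry potassium and water rose together. Kcnj10 was at 94.0, 96.6 and 82.8 scaled CPM in WT and at 162, 167 and 162 in NS-treated rd10, a log2 fold change of 0.84 (SE 0.06, edgeR adjusted p = 4.1e-07). Aqp4 (chr18:15389496-15410982), whose protein sits with Kir4.1 in the endfeet of Müller glia, was at 132, 147 and 131 in WT and at 294, 263 and 273 in NS-treated rd10. Its log2 fold change was 1.02 (SE 0.07, interval 0.87 to 1.16, edgeR adjusted p = 1.15e-07). In each of these genes the lowest NS-treated library was well above the highest WT library.

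Dkk3 rose with little spread in either group. Its WT libraries were at 841, 851 and 828 scaled CPM and its NS-treated libraries at 1480, 1460 and 1520, and the log2 fold change was 0.82 (SE 0.06, edgeR adjusted p = 1.42e-07). Car14, whose product speeds the interconversion of carbon dioxide and bicarbonate, was at 96.9, 87.0 and 86.4 in WT and at 147, 129 and 161 in NS-treated rd10. NS replicate 2 was the lowest of the 3 but still above WT, and the log2 fold change was 0.69 (SE 0.08, edgeR adjusted p = 1.7e-05).

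Abca8a behaved like Glul. It was at 272, 276 and 249 scaled CPM in WT and at 286, 210 and 273 in NS-treated rd10, where replicate 2 was again low. The groups overlapped, with a log2 fold change of −0.05 (SE 0.11, interval −0.29 to 0.19, edgeR adjusted p = 0.682). Without NS replicate 2, the log2 fold change was 0.12 for Glul and 0.07 for Abca8a, and neither passed the test (adjusted p = 0.158 and 0.345). In the same library, 9 genes of the retinal pigment epithelium summed to 65.5 scaled CPM, and to 61.4 to 110 in WT. The other NS-treated libraries were at 268 and 182. NS replicate 2 had the highest sums of its group over gliosis genes (3520 beside 2890 and 2810) and rod genes (20300 beside 17100 and 14100). Its share of counts from mitochondrial genes was the lowest, at 6.36% beside 7.29% and 6.94%. The part of these in the values of Glul, Abca8a and Car14 was not tested.

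The SOX genes, which hold Müller glia in their glial identity and mark them in sections, showed the largest and the smallest rise. Sox2 was not the smallest without WT replicate 2 (0.70, beside 0.67 for Car14) or with the length trend removed (0.65, beside 0.64 for Slc1a3). Sox9 was at 12.7, 13.4 and 14.7 scaled CPM in WT and at 54.8, 49.6 and 47.9 in NS-treated rd10. The highest WT library was thus far below the lowest NS-treated one, with a log2 fold change of 1.90 (SE 0.09, interval 1.71 to 2.09, edgeR adjusted p = 6.71e-09). Sox2 was at 23.3, 27.5 and 24.1 in WT and at 38.5, 34.9 and 42.1 in NS-treated rd10, a log2 fold change of 0.62 (SE 0.09, edgeR adjusted p = 9.56e-05).

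**Figure D2:**
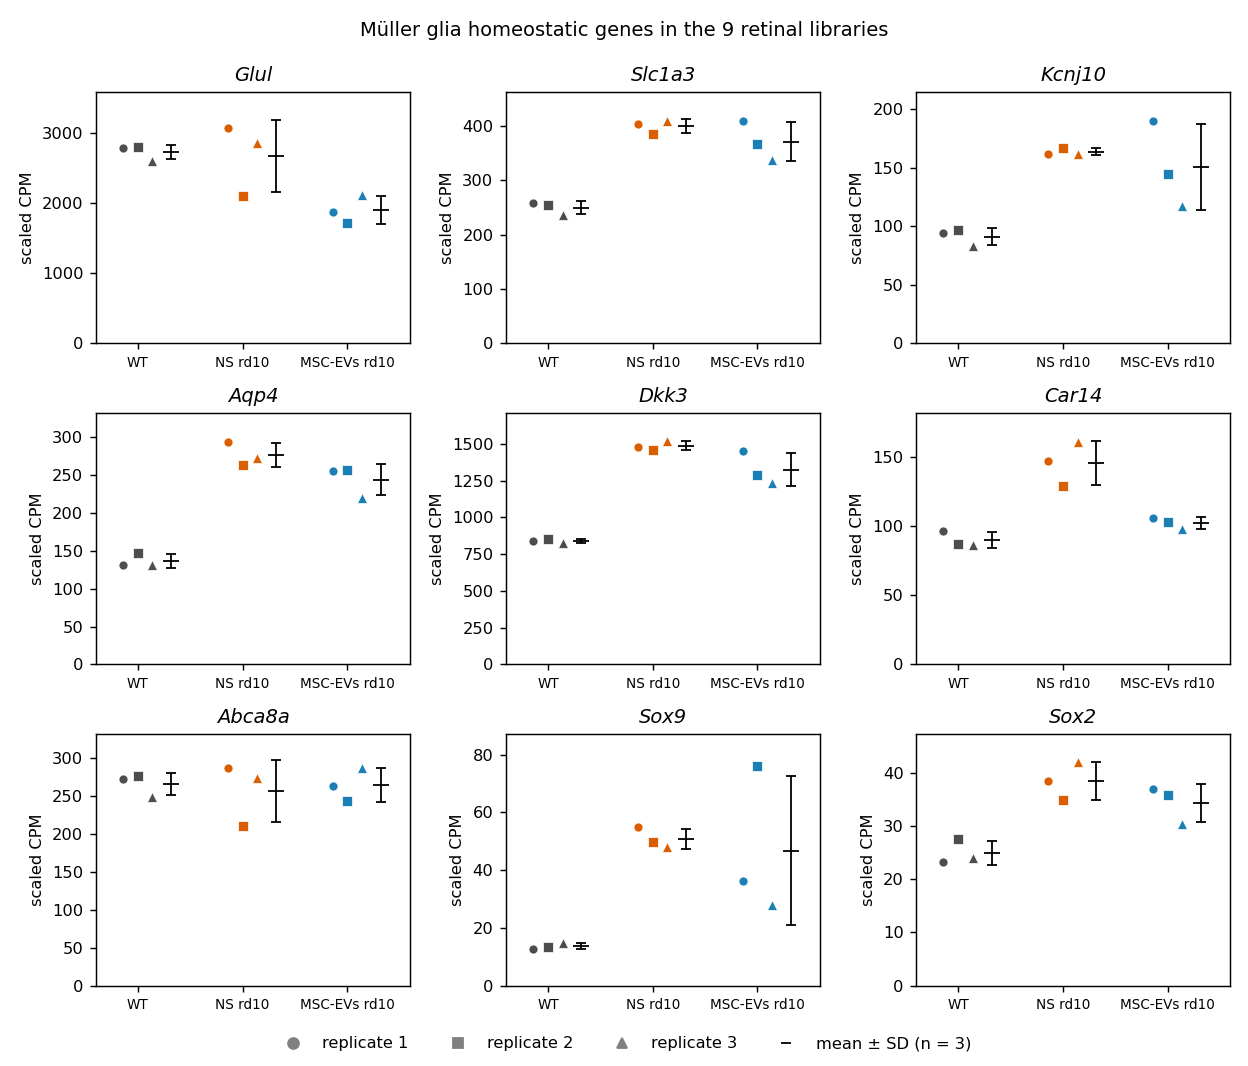
Scaled CPM of each of the 9 genes in the libraries of the WT group and of both rd10 groups (one panel per gene, axes from 0), with markers for replicates 1 to 3 and a bar for the mean ± SD (n = 3). In 7 panels all NS-treated points lie above all WT points, whereas in the panels of Glul and Abca8a the groups overlap.

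How the libraries were scaled moved all differences from WT together. When libraries were scaled so that 24 genes of inner retinal neurons kept the same mean log level, the median log2 fold change over all genes moved to −0.27, and the median of the 9 genes to 0.41. The same 7 genes were still called higher, and Glul (−0.32, adjusted p = 0.019) and Abca8a (−0.34, adjusted p = 0.00327) were then called lower, beside 15.3% of all genes called higher and 47.2% called lower. Scaling by library size alone moved the median of all genes to 0.184, with Glul at 0.15 and Abca8a at 0.12 (adjusted p = 0.317 and 0.325). Of the genes called, 50.8% were higher in NS-treated rd10 with TMM, 24.5% with the inner retinal neuron scaling and 71.7% by library size.

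The other genes known from Müller glia mostly rose as well. Of 17 such genes, 14 rose and 1 fell, with a median log2 fold change of 0.83, and 11 rose and 2 fell with the inner retinal neuron scaling. The largest rises were those of Crym, a thyroid hormone binding protein (2.85, SE 0.38, adjusted p = 0.00293), the secreted chaperone Clu (1.61, SE 0.06, adjusted p = 1.71e-09) and the metalloproteinase inhibitor Timp3 (1.39, SE 0.17, adjusted p = 0.000468). Clu is abundant, and went from 610 ± 9.01 scaled CPM in WT to 1870 ± 104 (SD, n = 3). Rlbp1, the retinaldehyde carrier of Müller glia and pigment epithelium, rose by less, with a log2 fold change of 0.46 (adjusted p = 0.000368).

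Gliosis genes had a higher median log2 fold change than the homeostatic ones, at 2.92 beside 0.69, and the difference was not tested. The ranges overlapped, at 1.22 to 5.68 for gliosis genes and −0.05 to 1.90 for the homeostatic ones. All 15 of the gliosis list rose, each with a log2 fold change above 1, and all 15 were called with the inner retinal neuron scaling too. Gfap, the intermediate filament protein of astrocytes and reactive Müller glia, was at 49.7, 42.8 and 48.3 scaled CPM in WT and at 206, 381 and 311 in NS-treated rd10. The groups were well apart and the NS-treated libraries scattered, with a log2 fold change of 2.67 (SE 0.26, adjusted p = 0.000532). The inhibitor of metalloproteinases Timp1 (5.68), the siderophore binding Lcn2 (5.35) and the serpin Serpina3n (5.33) had the largest log2 fold changes. Markers of retinal astrocytes could add to several of the 9 genes: of 7 such genes, Gfap included, 4 rose and 1 fell. Among them were Aldh1l1 (1.80, adjusted p = 1.16e-05) and Gja1 (1.73, adjusted p = 6.93e-05), while the abundant Aldoc had a log2 fold change of 0.08 (adjusted p = 0.195), and the part of astrocytes in the values of the 9 genes was not tested.

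Genes that work beside the 9 were split by function. Among 14 genes of glutamate and GABA handling, 9 rose and 5 fell (median 0.34), and 5 rose and 5 fell with the inner retinal neuron scaling. The cystine and glutamate exchanger Slc7a11 (1.83, adjusted p = 1.59e-07) and the GABA transporter Slc6a13 (1.57, adjusted p = 0.00072) rose most. The glutamine transporter Slc38a3, the most abundant of the list, fell by 0.21 on the log2 scale (adjusted p = 0.0103), from 528 ± 25.6 to 459 ± 24.1 scaled CPM. With TMM, the transporter Slc1a3 rose, the glutamine exporter Slc38a3 fell, and Glul did not pass the test. Scaling by library size moved the median over all genes from 0.005 to 0.184, a shift close in size to the fall of Slc38a3. The direction of Slc38a3 may therefore depend on the scaling.

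Among 14 partners of Kcnj10 and Aqp4, including the dystrophin complex that anchors both proteins, 13 were tested, of which 7 rose and 3 fell (median 0.38), or 5 and 4 with the inner retinal neuron scaling. Agrin (Agrn 1.33, adjusted p = 1.51e-06), the osmotically gated channel Trpv4 (1.14, adjusted p = 0.0024) and the abundant Mlc1 (0.83, adjusted p = 9.31e-08) rose. The other water channel of the list, Aqp1, fell from 132 ± 2.83 to 35.9 ± 4.91 scaled CPM, a log2 fold change of −1.87 (SE 0.09, adjusted p = 1.62e-08) with a sign opposite to that of Aqp4. Dystrophin itself (Dmd) went from 153 ± 12.6 to 74.9 ± 3.91 scaled CPM and fell by 1.03 on the log2 scale. Aqp1 and Dmd are also transcribed in photoreceptors, and the part of the loss of rods in their values was not tested.

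Partners of Car14 and Dkk3 showed no common direction. Of 12 genes of acid-base and lactate transport, 4 rose and 3 fell, or 2 and 4 with the inner retinal neuron scaling. The lactate transporter Slc16a1 (−1.11, adjusted p = 7.1e-08) and the bicarbonate transporter Slc4a7 (−0.84, adjusted p = 6.74e-07) fell, and the bicarbonate transporter Slc4a4 rose (0.80, adjusted p = 8.76e-06). The cytosolic carbonic anhydrase Car2, which Müller glia also hold, had a log2 fold change of 0.10 (adjusted p = 0.123). Of 14 Dickkopf and Wnt genes 9 were tested, of which 4 rose and 2 fell, or 3 and 4 with the inner retinal neuron scaling. The Dickkopf receptor Kremen1 (1.15, adjusted p = 1.2e-08) and the Wnt coreceptor Lrp5 (1.23, adjusted p = 1.13e-06) rose, while Kremen2 fell by 1.58 (adjusted p = 0.00395). Dkk1 and Dkk4 had 3 counts or fewer in every library.

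The relatives of Abca8a and of the SOX genes differed from each other. Of 9 ABCA transporters 2 rose and 3 fell, or 2 and 6 with the inner retinal neuron scaling. Abca1, which exports cholesterol, rose from 42.5 ± 3.75 to 172 ± 7 scaled CPM (log2 fold change 2.01, adjusted p = 1.23e-09), and Abca4, the retinoid flippase of photoreceptor discs, fell by 1.83 (adjusted p = 1.82e-07). Abca8b, the paralogue next to Abca8a, had a log2 fold change of −0.21 (adjusted p = 0.0623). Of 24 glial and progenitor transcription factors 21 were tested, of which 16 rose and 3 fell (median 0.50), or 9 and 3 with the inner retinal neuron scaling. Id3 (1.43, adjusted p = 6.01e-08) and Id1 (1.00, adjusted p = 2.84e-05), which block basic helix-loop-helix factors, rose, and the Notch target Hes5 fell by 1.74 (adjusted p = 0.000317). Sox9 had a larger log2 fold change than any of these 21.

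**Figure D3:**
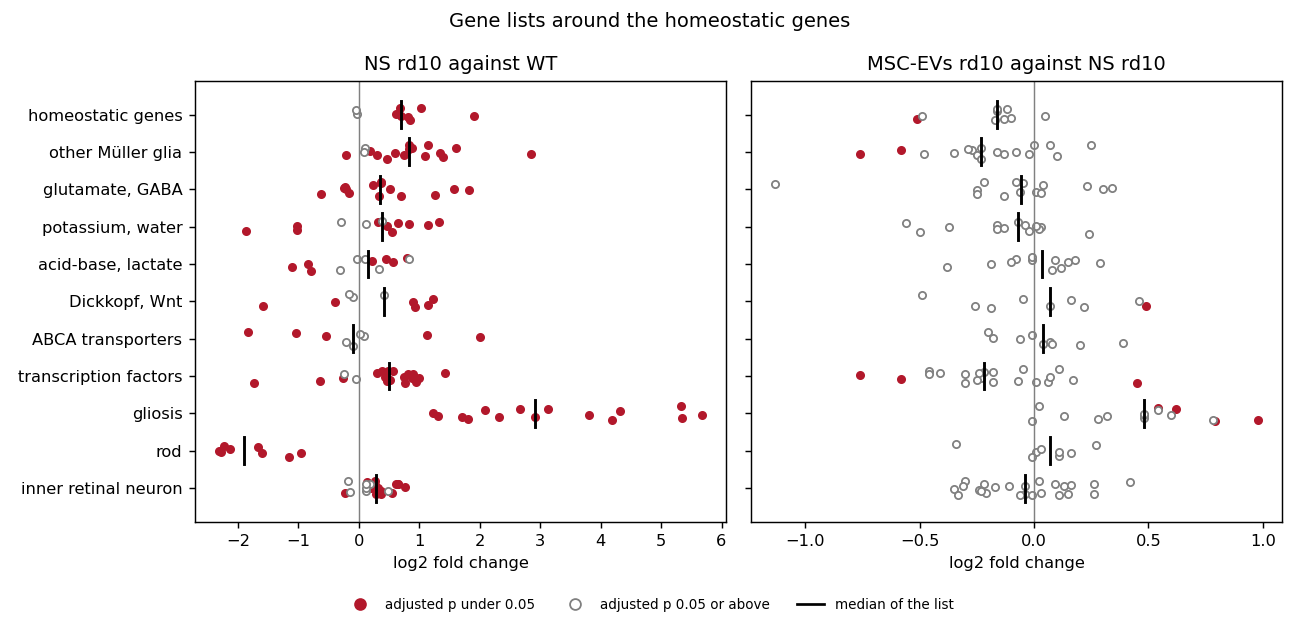
Log2 fold changes of the genes tested in each list, for NS-treated rd10 against WT (left) and MSC-EVs-treated against NS-treated rd10 (right, with a narrower axis), with filled points for an adjusted p under 0.05, open points for the rest, small vertical shifts to separate points and a bar for the median of a list. The gliosis median is at 2.92 on the left and 0.48 on the right, and that of the homeostatic genes at 0.69 and −0.16.

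Comparing MSC-EVs-treated with NS-treated rd10 asked which genes differed after the vesicles. Of the 9 genes, 1 passed the test: Car14 fell by 0.51 on the log2 scale, and the other 8 did not pass. The log2 fold change was below 0 for 8 of the 9 and above 0 for 1, beside 49.6% of all genes tested that were above 0. The median over the 9 genes was −0.16, beside −0.002 over all 14765 genes. In this comparison 1.16% of the genes tested were called, with 0.251% of those tested called lower in MSC-EVs-treated rd10. None of the 9 was called when a log2 fold change of 1 or more in size was also required, by edgeR or DESeq2, beside 0.061% of genes by edgeR. Without that condition, 4 of the 9 had an unadjusted p under 0.05 with edgeR, beside 20.2% of genes, and 2 were called by DESeq2, beside 6.3%. The MSC-EVs libraries all lay below the NS-treated ones for 3 of the 9, Car14, Aqp4 and Dkk3, beside 13.5% of genes.

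Car14 was at 147, 129 and 161 scaled CPM in NS-treated rd10 and at 106, 103 and 97.8 in MSC-EVs-treated rd10. The treated libraries were all below the NS-treated ones, with a log2 fold change of −0.51 (SE 0.08, interval −0.69 to −0.32, edgeR adjusted p = 0.032). Leaving out NS replicate 1 or 3 ended the call (adjusted p = 0.059 and 0.169), as did leaving out MSC-EVs replicate 1 or 3 (adjusted p = 0.149 and 0.0558), while the log2 fold change in these fits stayed between −0.52 and −0.43. With the inner retinal neuron scaling it was −0.46 (adjusted p = 0.0665), with a trend with transcript length removed −0.43 (adjusted p = 0.098), and with Y-linked expression as a covariate −0.56 (adjusted p = 0.0729). The share of counts from mitochondrial genes also lay apart, at 6.36% to 7.29% in NS-treated, 5.76% to 6.32% in MSC-EVs-treated rd10 and 5.66% to 5.93% in WT, and its part in the values was not tested. Genes of the pigment epithelium, where Car14 is also transcribed, summed to 268, 65.5 and 182 scaled CPM in NS-treated and to 93.3, 77.5 and 224 in MSC-EVs-treated rd10, Ttr being the most abundant. The groups overlapped in this sum, all 9 genes had a log2 fold change below 0 (median −0.36), none passed edgeR's or DESeq2's test and 2 had an unadjusted p under 0.05 with either, and their part in the value of Car14 was not tested.

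Glul had a difference of the same size. The NS-treated libraries were at 3080, 2100 and 2860 scaled CPM and the MSC-EVs-treated ones at 1870, 1720 and 2120. NS replicate 2 and MSC-EVs replicate 3 overlapped, and the log2 fold change of −0.49 (SE 0.15, interval −0.84 to −0.14) did not pass edgeR's test (unadjusted p = 0.0132, adjusted p = 0.14). DESeq2's Wald test called it (−0.49, adjusted p = 0.00615), as did edgeR with all 9 libraries in one fit (−0.50, adjusted p = 0.0498).

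For the other genes the intervals give the precision of the difference between these libraries, and not of an effect of the vesicles alone. Slc1a3 was at 409, 366 and 338 scaled CPM in MSC-EVs-treated rd10, one library inside the range of its NS-treated values and 2 below it, and its interval ran from −0.27 to 0.07. Aqp4 was at 256, 257 and 220 (log2 fold change −0.17, adjusted p = 0.239) and Dkk3 at 1450, 1290 and 1230 (−0.16, adjusted p = 0.245), each just below its NS-treated libraries. Sox2 was at 37.1, 35.8 and 30.4, with an interval from −0.39 to 0.07, and Abca8a at 263, 243 and 287, with one from −0.22 to 0.33.

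Kcnj10 and Sox9 were the genes in which the MSC-EVs libraries disagreed. Kcnj10 was at 190, 145 and 117 scaled CPM beside 162, 167 and 162 in NS-treated rd10, and its interval ran from −0.51 to 0.27. Sox9 was at 36.2, 76.1 and 28 beside 54.8, 49.6 and 47.9, so that MSC-EVs replicate 2 stood above all NS-treated libraries and the other 2 below them. Its log2 fold change was −0.13 (SE 0.40, interval −1.15 to 0.89, edgeR adjusted p = 0.898), and −0.67 without MSC-EVs replicate 2 (adjusted p = 0.0157).

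MSC-EVs replicate 3, the treated library without Y-linked counts, was the lowest of its group for Slc1a3, Kcnj10, Aqp4, Dkk3, Car14, Sox9 and Sox2 and the highest for Glul and Abca8a. It was not always the library farthest from the others. In Slc1a3, Kcnj10 and Dkk3 that was replicate 1, in Sox9 it was replicate 2, and in Abca8a the 3 libraries were about evenly spaced. Replicate 3 also had the lowest sum of its group over microglia and macrophage genes (312 scaled CPM beside 462 and 547) and over gliosis genes (3440 beside 4700 and 4420). Its sum over pigment epithelium genes was the highest (224 beside 93.3 and 77.5), and so was that over rod genes (20700 beside 14800 and 18900). In the fit of 7 libraries, where this library alone stood for the treatment and its spread was taken from the other groups, 4 members were called lower than in NS-treated rd10, beside 3.48% of genes called lower and 7.89% called in all. The fit of all 9 libraries together called 2 members and 6.88% of genes. The 4 were Sox9 (−0.86, adjusted p = 0.000945), Kcnj10 (−0.49, adjusted p = 0.00571), Aqp4 (−0.33, adjusted p = 0.0404) and Car14 (−0.57, adjusted p = 0.0109). The other 5 did not pass, with Dkk3 at −0.27 (adjusted p = 0.0505), Slc1a3 at −0.24 (adjusted p = 0.0834), Sox2 at −0.34 (adjusted p = 0.109), Glul at −0.34 (adjusted p = 0.288) and Abca8a at 0.17 (adjusted p = 0.522). With Y-linked expression as a covariate, none of the 9 was called by edgeR, and 6 had an unadjusted p under 0.05, beside 18.1% of genes. The median of the 9 was then −0.32, with Kcnj10 at −0.48 and Sox9 at −0.85. In the fit with the covariate, too, MSC-EVs replicate 3 stands for the treatment. Y-linked counts, depth and these other cell types move together in this library, and their part in the values was not tested.

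Among the surrounding lists, few genes passed the test between the rd10 groups. Of the 17 other Müller glia genes 2 fell, the Notch effector Hes1 and the glial factor Nfia. DESeq2 called 5 of the 17, beside 6.3% of genes. With Y-linked expression as a covariate edgeR called 0 of the 17, and 8 had an unadjusted p under 0.05, beside 18.1% of genes. The median log2 fold change of the 17 was −0.23 in the main fit and −0.25 without both libraries that carried Y-linked counts. Hes1 was at 18.4, 18 and 16.6 scaled CPM in NS-treated and at 9.70, 9.99 and 11.4 in MSC-EVs-treated rd10, beside 9.6 ± 1.03 in WT (log2 fold change −0.76, SE 0.11, adjusted p = 0.0252). Nfia was at 41.4, 49.2 and 47.6 and at 30.7, 30.5 and 31.1, beside 27.5 ± 2.37 in WT (−0.58, SE 0.09, adjusted p = 0.0261). In both genes the treated libraries were all below the NS-treated ones. The receptor gene Notch1 rose (0.45, adjusted p = 0.0424), as did the Dickkopf receptor Kremen1 (0.49, SE 0.07, adjusted p = 0.0252), which was at 106, 110 and 104 in NS-treated and at 153, 137 and 157 in MSC-EVs-treated rd10.

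No gene of the glutamate and GABA, potassium and water, acid-base or ABCA lists passed edgeR's test, the medians lying between −0.07 and 0.04. At an unadjusted p under 0.05 there were 4, 4, 2 and 0 genes in these lists, and DESeq2 called 2, 2, 0 and 0. Without both libraries that carried Y-linked counts, edgeR called 3, 2, 2 and 1, and with Y-linked expression as a covariate it called 1 gene, in the ABCA list. DESeq2 called 6 of the 15 gliosis genes. With edgeR 4 of the 15 rose and none fell, with a median of 0.48. They were the growth factor Fgf2 (0.98, adjusted p = 0.0209), the oncostatin M receptor Osmr (0.79, adjusted p = 0.0156), the hyaluronan receptor Cd44 (0.62, adjusted p = 0.046) and the transcription factor Stat3, which was at 263 ± 27.6 scaled CPM in NS-treated and 381 ± 10.1 in MSC-EVs-treated rd10. Gfap was at 458, 512 and 381 scaled CPM in MSC-EVs-treated rd10, one of these libraries level with the highest NS-treated one, and its log2 fold change of 0.60 did not pass (adjusted p = 0.257). Without both libraries that carried Y-linked counts, 3 of the 15 rose (Fgf2, Osmr and Stat3), and the cytokine signalling inhibitor Socs3, named after its value was seen, fell by 0.72 (adjusted p = 0.00565), with a median of 0.18 over the list. With Y-linked expression as a covariate 2 rose, with a median of 0.2. With the inner retinal neuron scaling 2 of the 15 were called, and Hes1, Nfia, Notch1 and Kremen1 were not, whereas all 4 of these passed without both libraries that carried Y-linked counts.

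Comparing MSC-EVs-treated rd10 with WT asked how far the treated retina stood from the normal one. Of the 9 genes 7 were higher than in WT and 1, Glul, was lower, with a median log2 fold change of 0.58 beside −0.004 over 14623 genes, of which 55.5% were called, 28.3% higher and 27.2% lower. Their libraries lay wholly above those of WT for 7 of the 9 and wholly below for 1, beside 31.9% and 33.3% of genes. In the fit of 7 libraries without both that carried Y-linked counts the median of the 9 was 0.35, and with Y-linked expression as a covariate 0.37. With the condition on fold, 1 was called, Sox9, beside 12.2% of genes, and with the covariate 0 were. The 2 comparisons with WT share the WT libraries, and those of the rd10 groups share the NS-treated ones, so the values below are set side by side without a test between them.

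Against WT, the log2 fold change after NS and after MSC-EVs was 0.68 and 0.58 for Slc1a3, 0.84 and 0.73 for Kcnj10, and 1.02 and 0.85 for Aqp4. It was 0.82 and 0.66 for Dkk3, 0.62 and 0.46 for Sox2, and 1.90 and 1.78 for Sox9. These 6 genes passed the test in both comparisons with TMM, and the second value had its largest standard errors in Sox9 (0.44, adjusted p = 0.0204) and Kcnj10 (0.18, adjusted p = 0.0172). With the inner retinal neuron scaling, 5 of the 9 were higher and 2 lower after MSC-EVs, beside 15.4% and 45.9% of genes, and Sox2 lost its call (0.23, adjusted p = 0.128), as it did without the 2 libraries that carried Y-linked counts (0.28, adjusted p = 0.0852). Sox9 was at 1.04 without those 2 libraries (adjusted p = 9.86e-06) and at 1.05 with Y-linked expression as a covariate (adjusted p = 0.146), and leaving out any 1 WT library ended its call (adjusted p = 0.0543 to 0.0613). With the covariate 3 of the 9 were higher, Slc1a3, Aqp4 and Dkk3, and Glul was lower, beside 22% and 18.7% of genes, so that Kcnj10 (0.37, adjusted p = 0.0883) and Sox2 (0.29, adjusted p = 0.0592) lost their calls too. Kcnj10 did not pass without WT replicate 3 or MSC-EVs replicate 2 either (adjusted p = 0.0591 and 0.0736). For Car14 the values were 0.69 and 0.19, the second just past the threshold (adjusted p = 0.0292), lost without WT replicate 2 or 3 or MSC-EVs replicate 1 (adjusted p = 0.0871 to 0.126), and at −0.05 with the inner retinal neuron scaling. Glul parted the other way, with −0.03 and −0.52 (SE 0.08, adjusted p = 0.000364), all 3 MSC-EVs-treated libraries lying below all WT libraries. Without the 2 libraries that carried Y-linked counts, Glul was at −0.37 (adjusted p = 0.14) and 5 of the 9 were called, beside 38.5% of genes. Abca8a did not pass in either with TMM, at −0.05 and 0.00 (interval of the second −0.15 to 0.16), and was called lower in both with the inner retinal neuron scaling (−0.34 and −0.24, adjusted p = 0.00327 and 0.00741).

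**Figure D4:**
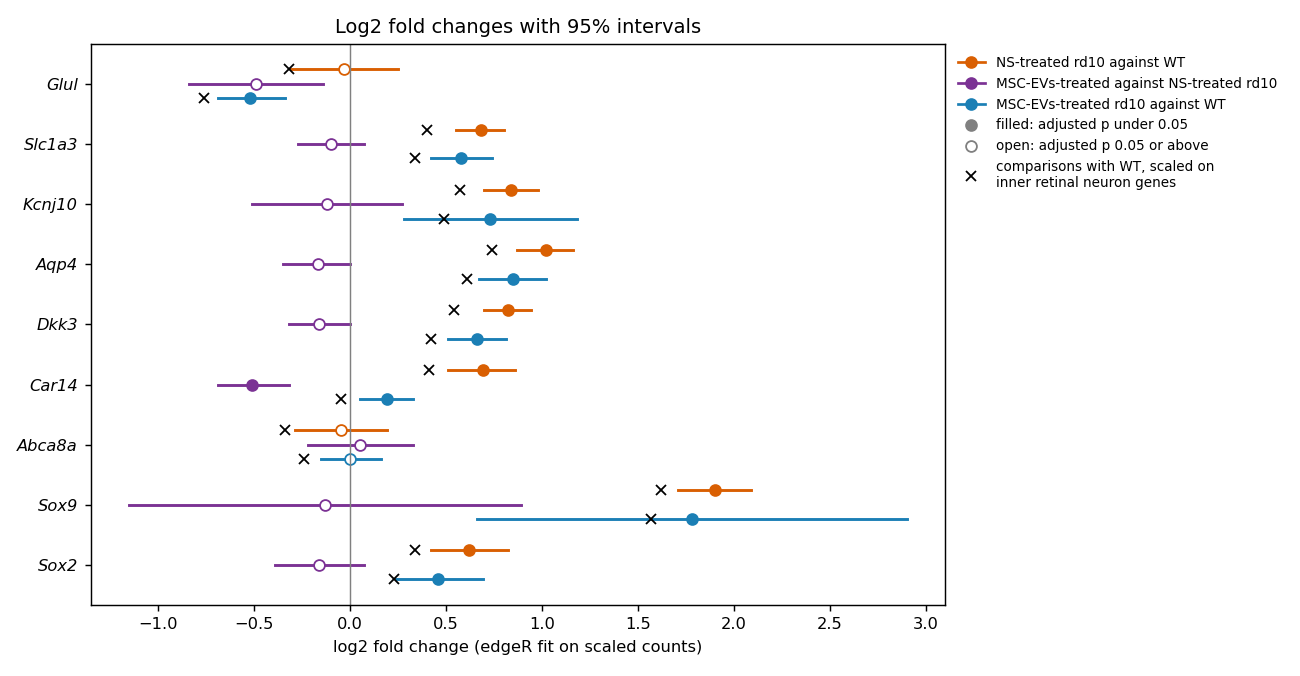
Log2 fold changes with 95% intervals for the 9 genes in the 3 comparisons, filled where the adjusted p was under 0.05, with crosses for the comparisons with WT after scaling on inner retinal neuron genes. Car14 is the filled point between the rd10 groups, the widest interval there is that of Sox9 (−1.15 to 0.89), and the crosses lie to the left of the points of the same comparison.

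Ratios of counts within a library do not depend on how libraries are scaled to each other, and were computed, after the levels had been seen and with no test, against Slc1a3. For each count of Slc1a3 there were 10.8, 11.0 and 11.1 of Glul in WT, 7.64, 5.45 and 6.99 in NS-treated rd10, and 4.56, 4.69 and 6.27 in MSC-EVs-treated rd10. The WT libraries nearly coincided and lay above all rd10 libraries. For Abca8a the ratio was 1.06 ± 0.0183 in WT, 0.639 ± 0.0851 in NS-treated and 0.719 ± 0.114 in MSC-EVs-treated rd10 (SD, n = 3), again with every WT library above every rd10 library. Sox9 moved the other way, from 0.0548 ± 0.00682 to 0.127 ± 0.00950 and 0.126 ± 0.0707.

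The ratio of Aqp4 to Slc1a3 was 0.548 ± 0.0356 in WT and 0.693 ± 0.0318 and 0.66 ± 0.0391 after NS and MSC-EVs, with every rd10 library above every WT library. The ratio of Sox2 to Slc1a3 was 0.1 ± 0.00913, 0.0962 ± 0.00622 and 0.0927 ± 0.00437 in the same order of groups, and that of Dkk3 was 3.37 ± 0.126, 3.72 ± 0.0658 and 3.57 ± 0.0593. That of Car14 was 0.361 ± 0.0171 in WT and 0.364 ± 0.0298 in NS-treated rd10. After MSC-EVs it was 0.258, 0.281 and 0.289, each below all 6 others. Against Rlbp1, Slc1a3 was at 0.665 ± 0.0493 in WT, 0.782 ± 0.112 in NS-treated and 1.00 ± 0.0185 in MSC-EVs-treated rd10, so the choice of the reference gene alters what a ratio shows. Against Rlbp1, Glul was at 7.29 ± 0.438 in WT and nearly alike in the rd10 groups, at 5.32 ± 1.6 and 5.19 ± 1.02.

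**Figure D5:**
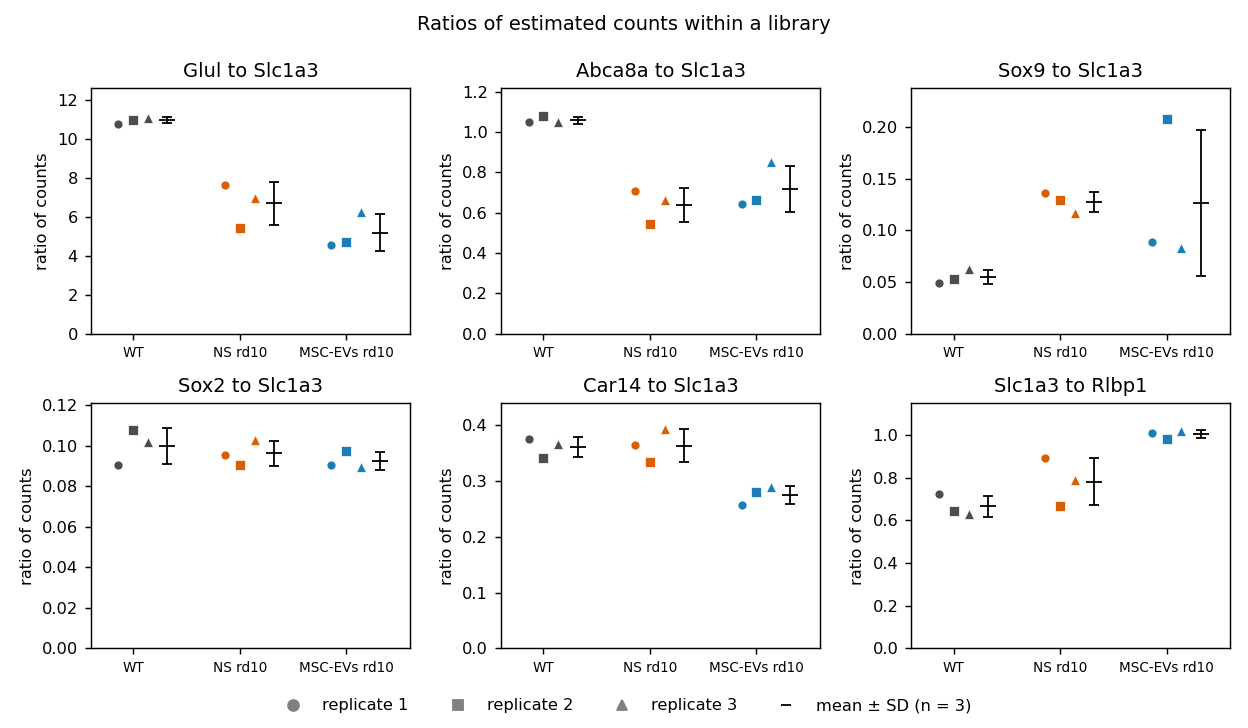
Ratios of estimated counts within each library (one panel per ratio, axes from 0), with markers for replicates 1 to 3 and a bar for the mean ± SD (n = 3). Glul and Abca8a are lower relative to Slc1a3 in every rd10 library than in any WT library, and Car14 relative to Slc1a3 is lowest in the 3 MSC-EVs-treated libraries.

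The 7 genes other than Glul and Abca8a were positively correlated with each other over the 9 libraries. Pearson's r of log2 scaled CPM, given as a description over libraries that fall into groups, was 0.993 between Slc1a3 and Dkk3, 0.982 between Slc1a3 and Aqp4 and 0.973 between Slc1a3 and Kcnj10. Car14 followed the others less closely, from 0.694 with Sox9 to 0.814 with Sox2. Between Slc1a3 and Glul it was −0.338, and between Glul and Abca8a 0.476. Among 10405 well measured genes, the genes outside the group most like Aqp4 were Spon1 (0.996), Lpcat3 (0.995) and Psap (0.994), and those most like Kcnj10 were Canx (0.981), Gpm6b (0.978) and Pon2 (0.978). Those most like Glul were Prodh (0.966), which encodes proline dehydrogenase, Etnppl (0.963), which encodes a phospholyase of phosphoethanolamine, and Pank1 (0.943), a pantothenate kinase.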

How the data were processed

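The labels name Trizol extraction, oligo(dT) enrichment and Illumina sequencing of retinal RNA. The submitters' processing notes name fastp, Bowtie2, HISAT2, StringTie 1.3.1 and RSEM, without their roles, and the genome build and annotation of the authors are not given in the sources used here. The authors deposited, for 22337 genes and 9 libraries, an estimated count per gene (expected counts, not scaled) and an FPKM value per gene, normalized by the authors for length and depth. The estimated counts carried decimals in 9.16% to 11.7% of genes per library and were rounded to whole numbers. The authors' own comparisons were not used.

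For every comparison, the 6 libraries involved were fitted with edgeR 4.0.16 under R 4.3.3 (filterByExpr, TMM, robust glmQLFit, glmQLFTest), and p was adjusted by Benjamini-Hochberg over all genes tested. Standard errors were derived from the F statistic (size of the log2 fold change over √F). The test was tried on simulated counts with known changes. DESeq2 1.42.0 and limma 3.58.1 on log2(FPKM + 1) and log2(FPKM + 0.1) were among the alternatives. Scaled CPM are CPM with TMM factors over all 9 libraries. Counts summed to between 19491717 and 62532343 per library, and replicates of a group differed by more than sampling noise (chi-square per degree of freedom 4.1 to 31.31). The members and gene lists were chosen with earlier results of these data known, and are no independent support for a pattern. The text names the 9 members, Gfap, the Y-linked genes and Abca8b, from each list up to 3 called genes with the largest change and up to 2 abundant ones, and the 3 genes most correlated with Glul, Kcnj10 and Aqp4 (mean of at least 10 CPM, log2(CPM + 1)). Dmd, Stat3, Rlbp1 and Socs3 were named after their values were seen. Identifiers were matched to GENCODE M21, which held 22232 of them.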

Additional observations from a re-analysis of the deposited data

How the results depend on the processing

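In NS-treated rd10 against WT, the 7 members that rose kept their direction and call under every alternative without a condition on fold. When a log2 fold change of 1 or more in size was also required, the genes called went from 8972 to 1863 and the members from 7 to 2. The log2 fold change of Glul, −0.03, turned to 0.0026 with upper-quartile factors, 0.15 by library size, 0.13 with limma on log2(FPKM + 1), 0.13 with limma on log2(FPKM + 0.1), and ran from −0.15 to 0.12 as libraries were left out (0.12 without NS replicate 2). That of Abca8a, −0.05, turned to 0.12 by library size, 0.11 with either FPKM pseudocount, and ran from −0.15 to 0.07 as libraries were left out (0.07 without NS replicate 2).

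In MSC-EVs-treated against NS-treated rd10, the 172 genes called became 39 with the inner retinal neuron scaling, 930 with DESeq2's Wald test, 1026 with all 9 libraries in one fit, 23 once a trend with transcript length was removed from each library, 1212 in one fit of the 7 libraries without both that carried Y-linked counts (2 changes at once, to be set beside the fit of all 9), 9 with the condition on fold and 5 at an adjusted p under 0.01. Fits without each of the libraries gave 0 to 676 genes and 0 to 2 members. The count was 0 without NS replicate 3 or MSC-EVs replicate 1, with 1991 and 2052 genes at an unadjusted p under 0.05, 32 without NS replicate 2, and 676 without MSC-EVs replicate 2. The 1 member called became 0 with the inner retinal neuron scaling, the length trend removed, Y-linked expression as a covariate, the condition on fold or an adjusted p under 0.01, 2 with DESeq2 or with all 9 libraries in one fit, and 4 in the fit of those 7 libraries. As libraries were left out, Kcnj10 ran from −0.31 to 0.03 (above 0 without MSC-EVs replicate 3), Abca8a from −0.07 to 0.14 (below 0 without NS replicate 2 or, at −0.02, MSC-EVs replicate 3) and Sox9 from −0.67 to 0.15 (above 0 without MSC-EVs replicate 3 or, at 0.03, MSC-EVs replicate 1). Abca8a turned to −0.04 with the length trend removed. Of the genes called, 78.5% were higher, beside 63% with upper-quartile factors, 97.4% with the inner retinal neuron scaling, 54.8% with limma on log2(FPKM + 1) and 67.8% with DESeq2.

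In MSC-EVs-treated rd10 against WT, the genes called went from 8117 to 1784 with the condition on fold, and the 8 members to 1. There were 5 members at an adjusted p under 0.01, and 4 with Y-linked expression as a covariate, the latter beside 40.7% of genes. When each library was left out there were 5 to 8 members, beside 43.8% to 56.7% of genes. The count was 5, beside 43.8% of genes, without WT replicate 3. In the fit of 7 libraries without both that carried Y-linked counts, the median of the members was 0.35, beside 0.58 before. Car14 turned to −0.05 with the inner retinal neuron scaling. Abca8a turned to −0.0021 with upper-quartile factors, −0.24 with the inner retinal neuron scaling, −0.0040 with all 9 libraries in one fit, −0.13 with the length trend removed, −0.05 without WT replicate 3 and −0.06 without MSC-EVs replicate 3. Of the genes called, 51% were higher, beside 71.4% by library size and 25.2% with the inner retinal neuron scaling. The cause of these changes was not tested.

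Deviations of same-numbered libraries correlated at 0.2, −0.05 and 0.01 between NS and WT, 0.05, 0.24 and 0.2 between MSC-EVs and NS, and 0.09, 0.04 and 0.07 between MSC-EVs and WT. For libraries with different numbers the range was −0.23 to 0.2, −0.24 to 0.07 and −0.07 to −0.01 in the same order. These values do not settle whether replicate numbers pair the samples, and the main fits did not pair them. With the replicate block, 403 genes and 2 members were called between the rd10 groups, Glul being the second (−0.48, adjusted p = 0.0406). The spread sets what can be seen: the biological coefficient of variation was 12.5% between the rd10 groups and 7.97% between NS-treated rd10 and WT.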

Other observations

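Other supporting cells of the retina were measured in the same libraries. Of 8 endothelial and pericyte genes, 7 rose in NS-treated rd10 against WT and none fell (edgeR, median log2 fold change 0.52), with Kdr, the main receptor for vascular endothelial growth factor, at 0.83 (adjusted p = 2.33e-07) and the pericyte gene Rgs5 at 0.80 (adjusted p = 1.62e-06). With the inner retinal neuron scaling, 3 of the 8 rose. All 10 microglia and macrophage genes rose, the lysosomal Cd68 by 4.37 (adjusted p = 3.66e-07) and the complement gene C1qb by 3.62 (adjusted p = 6.46e-10), and none of the 10 passed edgeR's or DESeq2's test between the rd10 groups, or had an unadjusted p under 0.05 there (median log2 fold change 0.04). In the fit of 7 libraries without both MSC-EVs libraries that carried Y-linked counts, 3 of the 10 were lower than in NS-treated rd10, 2 of them by a log2 fold change of 1 or more in size, 7 had an unadjusted p under 0.05 and the median was −0.53. With Y-linked expression as a covariate 1 was lower and the median was −0.51. Of 7 cone genes 3 fell and 1 rose (median −0.37), with Opn1sw falling by 0.58 (adjusted p = 6.19e-06) and Pde6c rising by 0.40 (adjusted p = 0.00014). With the inner retinal neuron scaling 5 fell and none rose.

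Of 24 inner retinal neuron genes, 16 rose and 1 fell in NS-treated rd10 against WT, with a median log2 fold change of 0.28. Oligodendrocyte genes summed to 41.9 to 61.3 scaled CPM over the 9 libraries, Mbp being the most abundant. Genes of lens, ciliary body and cornea summed to 15.2 to 106 scaled CPM without a common order of the groups, the highest values being in WT replicate 2 and MSC-EVs replicate 2.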
